A study of Mus musculus with 12 samples.

Results

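The genes described here encode the contractile apparatus and the actin cytoskeleton: actins, myosins and their regulators, tropomyosins, calponins, transgelins, cross-linkers such as filamins and alpha-actinins, LIM-domain partners and the linkers of focal adhesions. They were taken by symbol from a list of 53 genes, of which 52 had a row among the 12081 genes of the expression table; the level of Pdlim3 was not analysed here. The list was divided by textbook tissue of expression into 12 smooth-muscle-restricted genes, 16 muscle-enriched genes (15 measured) that other cells also use, and 25 broadly expressed genes. The class names are approximate, and genes called restricted can be active in other cells, as Des is in stellate cells. RNA was sequenced from mouse primary hepatic stellate cells, the pericytes of the liver sinusoid, in 4 groups of 3 libraries.

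All cells were isolated by density gradient from livers of Hk2 fl/fl mice, which carry loxP-flanked alleles of hexokinase 2, the enzyme that phosphorylates glucose at the start of glycolysis. QS cells were untreated and used fresh. ACT cells received an adenovirus expressing eGFP and were cultured for 6 days in DMEM with serum, which activates stellate cells. KO cells received an adenovirus expressing Cre recombinase fused to eGFP, which deletes Hk2, and were cultured for the same 6 days. LAC cells were KO cells given 10 mM lactate for 24 h. Cre reached the whole culture through the virus and was not limited to a cell type, and QS cells had neither virus nor culture. Whether the 3 libraries of a group came from different animals or cultures is not labelled; the p-values therefore describe variation among libraries, which could be technical alone.

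Quiescent stellate cells store vitamin A and hold little contractile protein. On activation they become myofibroblasts, which assemble stress fibres of smooth muscle actin and myosin II that pull on the matrix through focal adhesions. Many genes of smooth muscle and of the actin cytoskeleton are transcribed through serum response factor (SRF), which binds CArG boxes and is assisted by myocardin-related factors (MRTFs) that enter the nucleus when the pool of unpolymerised actin shrinks.

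Hk2 stood at 66.7 to 73.5 normalized CPM (read counts scaled to the size of the library) in QS, 181 to 182 in ACT, 10.7 to 13.7 in KO and 18.7 to 19.7 in LAC, and the libraries of KO and ACT did not overlap (exact two-sided permutation p = 0.1, the smallest that 3 against 3 libraries allow). The estimated depth was lowest in QS replicate 2 and highest in ACT replicate 1, and 3 reads corresponded to 0.212 to 0.720 CPM. The median coefficient of variation of the members was highest in QS (5.41%) and KO (5.12%) and lower in ACT (2.55%) and LAC (2.65%). The stellate markers Lrat, which esterifies vitamin A, and Reln were present in all groups, Lrat at 340 to 363 CPM in QS and at 2.48 to 19.9 CPM in the cultured groups. Summed over 15 stellate markers, the level was 6510 to 6664 CPM in QS, 1171 to 1211 in ACT, 1668 to 1771 in KO and 1855 to 1920 in LAC. Markers of other cells also differed between the groups. The summed level of 20 macrophage markers ranged over 6188 to 6381 CPM in QS, 18266 to 18601 in ACT, 578 to 603 in KO and 4659 to 4736 in LAC. Mrc1 made up most of the KO sum and went against the other markers, with means of 170 CPM in ACT and 387 in KO. Lyz2, with a mean of 9350 CPM, was a large part of the ACT sum. The sum of 20 endothelial markers ranged over 19827 to 20252, 757 to 777, 8955 to 9925 and 4761 to 4964 CPM in the same order. That of 20 hepatocyte markers was 2301 to 2345, 163 to 173, 541 to 599 and 262 to 271 CPM, with Apoa2 at 0 in ACT and 8 genes, among them Apoa2, Hnf4a and Cyp2e1, at 0 in LAC. A large part of the cultured sums was Ass1, with means of 114, 233 and 263 CPM in ACT, KO and LAC. In LAC against ACT, 10 of these 20 markers were lower and 1 higher. In bulk RNA, fewer cells of a type and less RNA per cell cannot be told apart.

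Of the 52 members, the smooth muscle actin Acta2 had the largest rise in ACT against QS. It encodes smooth muscle alpha-actin, the classical marker of activated stellate cells (mm10, chromosome 19, 34241090 to 34255590, minus strand). Its 3 libraries read 3.82, 2.64 and 1.46 CPM in QS, 2624, 2711 and 2633 in ACT, 675, 665 and 620 in KO, and 1469, 1432 and 1401 in LAC. No 2 groups overlapped, and the order was QS, KO, LAC, ACT. Against QS, Acta2 rose in ACT by 9.56 ± 0.16 (SE) on the log2(CPM + 1) scale (adjusted p = 1.2e-15). It fell by 2.02 ± 0.16 in KO against ACT (adjusted p = 6.4e-08) and rose by 1.13 ± 0.16 in LAC against KO (adjusted p = 6.4e-05). The mean in KO was 24.6% of that in ACT, and the mean in LAC 54.0%.

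Actg2, enteric smooth muscle gamma-actin (chromosome 6, 83512905 to 83536265, minus strand), was listed at 0 in all 3 QS libraries, so no fold against QS is given. It stood at 73.8, 70.1 and 76.3 CPM in ACT, at 1.61, 2.96 and 0 in KO, and at 28.0, 16.5 and 22.6 in LAC. All KO libraries lay below every LAC library, and all LAC libraries lay below ACT. Actg2 fell by 5.09 ± 0.36 in KO against ACT (adjusted p = 2.2e-08), the largest fall among the members in that comparison, and rose by 3.39 ± 0.36 in LAC against KO (adjusted p = 4.9e-06), the largest rise. Both values depend on the pseudocount of 1, since 1 KO library was at 0.

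The cytoplasmic actins moved far less. Actb, beta-actin, read 3305, 2991 and 3087 CPM in QS, 6064, 6052 and 5906 in ACT, 5683, 5530 and 5254 in KO, and 5108, 4948 and 5041 in LAC. Its log2 fold change was 0.94 ± 0.04 in ACT against QS (adjusted p = 3.2e-11). It was -0.13 ± 0.04 in KO against ACT (adjusted p = 0.011), but quantile normalization turned this to 0.14, as it turned the -0.12 of LAC against KO to 0.17. Actg1, cytoplasmic gamma-actin, read 1631, 1566 and 1633 CPM in QS, 3781, 3800 and 3806 in ACT, 2773, 2741 and 2789 in KO, and 3028, 3164 and 3001 in LAC. It rose by 1.24 ± 0.03 in ACT against QS (adjusted p = 5.6e-14) and fell by 0.46 ± 0.03 in KO against ACT (adjusted p = 6.9e-09). Its 0.15 ± 0.03 in LAC against KO (adjusted p = 0.0012) turned to -0.04 under quantile normalization. Per kilobase of transcript, Actb and Actg1 ranked first and second of the 52 members in every group, while Acta2 ranked 45 in QS and 3, 12 and 4 in ACT, KO and LAC.

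The actins are close in sequence, so whether reads can tell them apart bears on these values. The last 60 coding bases of 4 actins, stop codon included, are shown from the GENCODE M21 transcripts (mm10), with capitals at each base that differs from Acta2.
Acta2: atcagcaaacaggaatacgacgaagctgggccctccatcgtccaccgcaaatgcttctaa
Actg2: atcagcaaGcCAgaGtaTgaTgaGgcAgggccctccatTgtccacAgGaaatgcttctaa
Actb: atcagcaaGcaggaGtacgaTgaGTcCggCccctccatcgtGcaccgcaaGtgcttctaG
Actg1: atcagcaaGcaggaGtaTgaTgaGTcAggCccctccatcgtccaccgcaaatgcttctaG
Actg2 differed from Acta2 at 11 of these bases, Actb at 10 and Actg1 at 9. Over the coding sequence the identity to Acta2 was 84.4% for Actg2, 83.7% for Actb and 82.4% for Actg1. Of the 31-base words in the Acta2 transcripts, 98.8% were in none of the other actins compared (Actg2, Acta1, Actb and Actg1), and the share was 100% for Actg2, 93.8% for Actb and 95.1% for Actg1. Processed pseudogenes of the cytoplasmic actins were not part of this comparison.

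**Figure D1:**
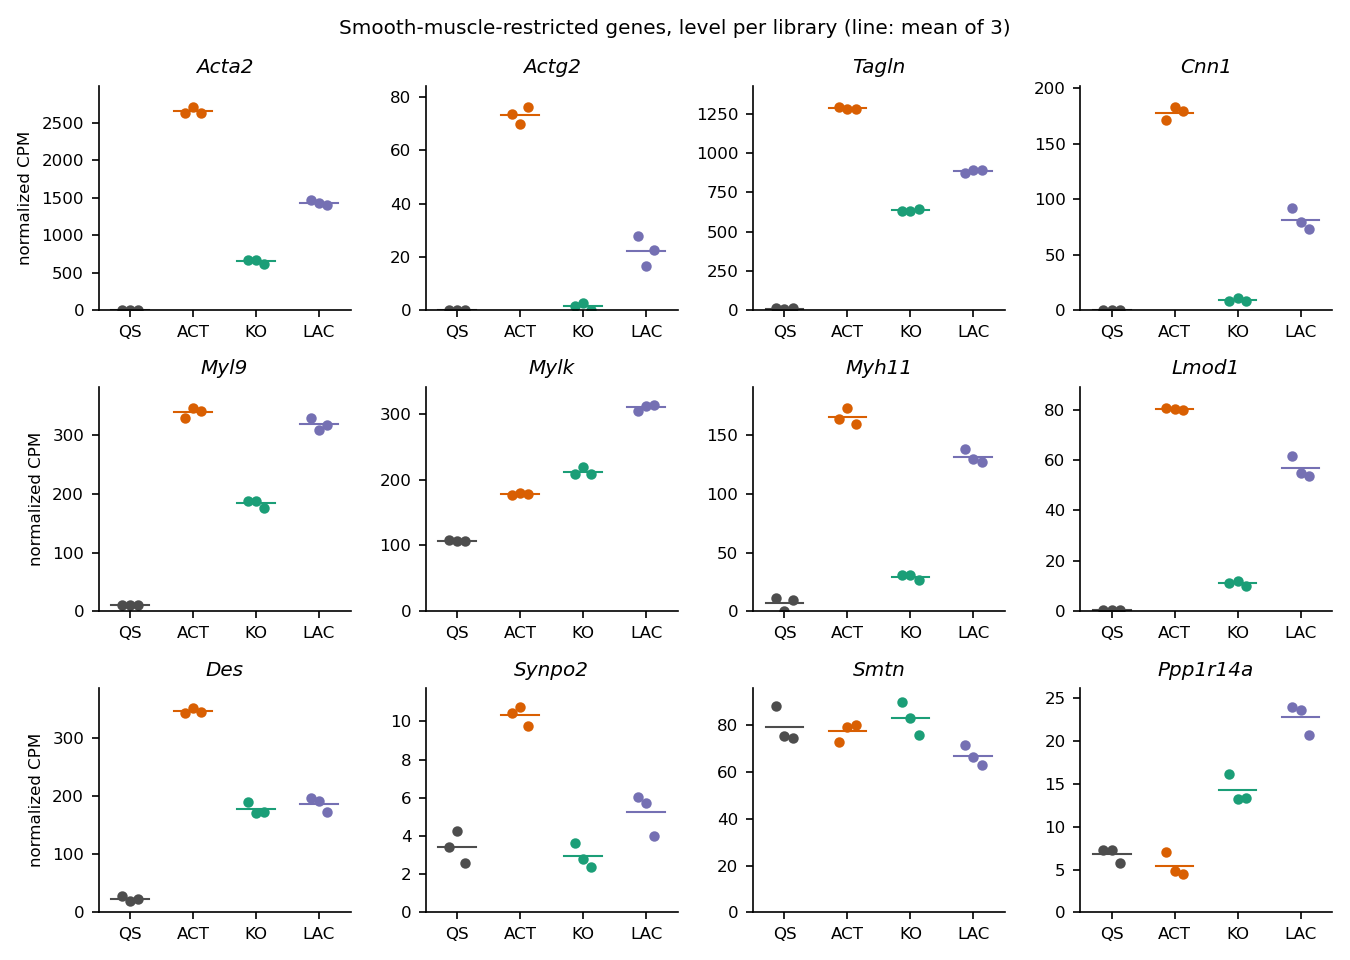
Level of the 12 smooth-muscle-restricted genes in normalized CPM (vertical axis, starting at 0) in QS, ACT, KO and LAC; each point is a library and each line the mean of 3. Acta2, Actg2, Tagln, Cnn1, Myl9, Myh11, Lmod1 and Synpo2 show ACT above LAC and LAC above KO, Des shows KO and LAC together, and Mylk and Ppp1r14a are highest in LAC.

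The means of Cnn1, Tagln and Lmod1 followed the same order of groups as Acta2, whereas that of Synpo2 was lower in KO than in QS. Cnn1, basic calponin, which binds actin and damps the myosin ATPase, read 0.397, 0.00503 and 0.418 CPM in QS, 171, 183 and 179 in ACT, 8.61, 10.9 and 8.91 in KO, and 91.9, 79.2 and 73.1 in LAC. It fell by 4.10 ± 0.14 in KO against ACT (adjusted p = 5.4e-12) and rose by 2.98 ± 0.14 in LAC against KO (adjusted p = 7.6e-10), so that its mean stood at 5.33% of ACT in KO and 45.8% in LAC. In QS it was at the level of a few reads. Tagln, transgelin or SM22, an actin-bundling protein, read 12.9, 9.86 and 12.9 CPM in QS, 1294, 1281 and 1282 in ACT, 630, 632 and 643 in KO, and 876, 890 and 892 in LAC. The mean in ACT was 108-fold that in QS, and KO and LAC held 49.4% and 68.9% of the ACT mean. Lmod1, leiomodin, which nucleates actin filaments in smooth muscle, read 0.516, 0.480 and 0.418 CPM in QS, 80.7, 80.3 and 79.9 in ACT, 11.1, 12 and 10.3 in KO, and 61.4, 55.0 and 53.8 in LAC. Lmod1 fell by 2.75 ± 0.10 in KO against ACT (adjusted p = 7.6e-12) and rose by 2.25 ± 0.10 in LAC against KO (adjusted p = 3.1e-10). Synpo2, synaptopodin 2, an actin-bundling protein, was low throughout, at 3.41, 4.28 and 2.61 CPM in QS, 10.4, 10.8 and 9.77 in ACT, 3.63, 2.79 and 2.36 in KO, and 6.04, 5.72 and 3.98 in LAC. Its KO libraries overlapped those of QS. Its rise of 0.67 ± 0.20 in LAC against KO (adjusted p = 0.015) was no longer called without KO replicate 3 (0.56, adjusted p = 0.055), LAC replicate 1 (0.57, adjusted p = 0.062) or LAC replicate 2 (0.60, adjusted p = 0.054).

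Smooth muscle myosin and its partner light chain also ranked ACT, LAC, KO and QS by their means. Myh11, the smooth muscle myosin heavy chain, read 11.2, 5.83e-07 and 9.98 CPM in QS, 164, 173 and 160 in ACT, 31.2, 30.7 and 27.1 in KO, and 138, 129 and 127 in LAC. QS replicate 2, in effect 0, stood apart from the other two and widened the error of every Myh11 value to 0.65. Myh11 fell by 2.45 in KO against ACT (adjusted p = 0.0049) and rose by 2.12 in LAC against KO (adjusted p = 0.019). With a pseudocount of 0.1 neither was called (adjusted p = 0.11 and 0.21), and the rise was also not called without LAC replicate 1 (2.08, adjusted p = 0.050). Myl9, the regulatory light chain whose phosphorylation switches contraction on, read 10.6, 10.6 and 10.9 CPM in QS, 330, 348 and 342 in ACT, 188, 189 and 177 in KO, and 329, 308 and 319 in LAC. Myl9 fell by 0.88 ± 0.04 in KO against ACT (adjusted p = 3.0e-10) and rose by 0.79 ± 0.04 in LAC against KO (adjusted p = 3.9e-09), to 93.8% of the ACT mean.

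The 2 restricted genes that set the phosphorylation of that light chain took another course. Mylk, the kinase, read 109, 106 and 107 CPM in QS, 177, 180 and 178 in ACT, 208, 219 and 209 in KO, and 303, 312 and 314 in LAC, with no overlap between groups. Mylk rose by 0.25 ± 0.03 in KO against ACT (adjusted p = 2.2e-05) and by 0.55 ± 0.03 in LAC against KO (adjusted p = 1.7e-08). Ppp1r14a, CPI-17, an inhibitor of myosin phosphatase, read 7.22, 7.32 and 5.81 CPM in QS, 7.04, 4.88 and 4.44 in ACT, 16.1, 13.2 and 13.4 in KO, and 23.9, 23.6 and 20.7 in LAC. Ppp1r14a overlapped between QS and ACT, rose by 1.25 ± 0.16 in KO against ACT (adjusted p = 9.1e-06) and by 0.64 ± 0.16 in LAC against KO (adjusted p = 0.0051), and in LAC stood at 416% of the ACT mean. Ppp1r12a, the targeting subunit of the phosphatase, stayed between 139 and 164 CPM in all 12 libraries. Within that range it was called lower in KO than in ACT, its KO mean being 87.2% of that in ACT, and higher in LAC than in KO.

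The remaining restricted genes were Des and Smtn. Des, desmin, the intermediate filament protein of muscle that stellate cells also use, read 27.3, 20.2 and 23.8 CPM in QS, 342, 350 and 344 in ACT, 189, 171 and 173 in KO, and 196, 191 and 172 in LAC. It fell by 0.96 ± 0.09 in KO against ACT (adjusted p = 2.4e-07), and KO and LAC overlapped (log2 fold change 0.07 ± 0.09, adjusted p = 0.55). Smtn, smoothelin, a protein of the contractile filament, read 88.2, 75.6 and 74.7 CPM in QS, 72.9, 79.1 and 80.1 in ACT, 90.1, 83.1 and 76.1 in KO, and 71.6, 66.3 and 63.2 in LAC. It did not pass the test in ACT against QS (-0.04 ± 0.08, adjusted p = 0.70) or in KO against ACT (0.10 ± 0.08, adjusted p = 0.29), and fell by 0.30 ± 0.08 in LAC against KO (adjusted p = 0.0067).

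To describe culture activation, ACT was compared with QS. Of the 52 members, 46 were higher in ACT and 2 lower, where 38.0% of all genes were higher and 35.5% lower. The median log2 fold change of the members was 1.31, beside 0.03 for all genes. Among the smooth-muscle-restricted genes 10 of 12 were higher (median 4.95), among the muscle-enriched genes 14 of 15 (median 1.71) and among the broadly expressed genes 22 of 25 (median 1.01). After Acta2 and Cnn1, the largest rise was that of Flnc, muscle filamin, from 1.45, 1.68 and 3.53 CPM in QS to 315, 335 and 338 in ACT (log2 fold change 6.74 ± 0.17, adjusted p = 9.3e-14). Fhl2, a LIM protein that binds SRF, was at 0 in each of the QS libraries and read 41.9, 42.6 and 40.6 CPM in ACT. Both members called lower were adaptor or LIM proteins. Pxn, paxillin, the scaffold of focal adhesions, went from 211, 184 and 202 CPM in QS to 107, 100 and 106 in ACT and fell by 0.92 ± 0.07 (adjusted p = 1.6e-08). Csrp2 fell by 0.49 ± 0.19 (adjusted p = 0.029), a call lost without QS replicate 1 (adjusted p = 0.057), QS replicate 2 (0.11), ACT replicate 1 (0.051) or ACT replicate 2 (0.10).

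The difference between the medians of restricted and broadly expressed genes was 3.94 on the log2 scale in ACT against QS. It was 1.62 when the muscle-enriched genes were counted as restricted. Macrophage markers moved with this comparison (13 of 20 higher and 3 lower in ACT), as did endothelial markers (20 of 20 lower) and hepatocyte markers (19 of 20 lower). The stellate markers were also mostly lower in ACT (12 of 15). Of 10 measured mesothelial and biliary markers, 5 were higher and 3 lower, the mean of Wt1 going from 0.93 CPM in QS to 79.8 in ACT. Of 3 measured portal fibroblast markers, 2 were higher and 0 lower, Fbln2 going from a mean of 2.82 CPM in QS to 958 in ACT. The part of these cells in the member values was not tested.

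**Figure D2:**
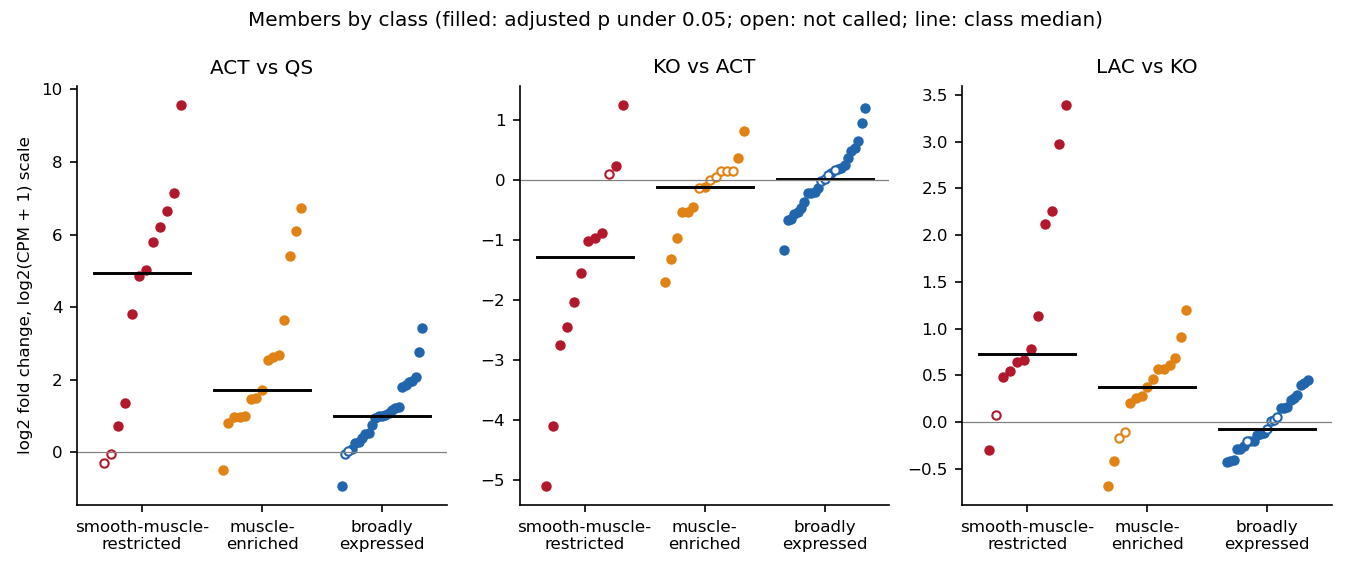
Log2 fold change on the log2(CPM + 1) scale (vertical axis) of each of the 52 measured members by class in ACT against QS, KO against ACT and LAC against KO; filled points passed an adjusted p of 0.05, open points did not, and lines are class medians. The medians of the restricted, muscle-enriched and broadly expressed genes were 4.95, 1.71 and 1.01, then -1.28, -0.12 and 0.03, then 0.73, 0.37 and -0.07.

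Comparing KO with ACT asks what loss of Hk2 during culture did to these genes. Of the 52 members, 27 were lower in KO and 14 higher, beside 26.3% of all genes lower and 36.0% higher; the member median was -0.13 and that of all genes 0.07. The restricted genes had 9 falls and 2 rises among 12 (median -1.28). The log2 fold changes of the 9 that fell spanned -5.09 to -0.88, and those of the 2 that rose were 0.25 for Mylk and 1.25 for Ppp1r14a. The muscle-enriched genes had 7 falls and 2 rises among 15 (median -0.12), and the broadly expressed genes 11 falls and 10 rises among 25 (median 0.03). In KO the median restricted gene stood at 38.9% of its ACT level, the median muscle-enriched gene at 92.2% and the median broadly expressed gene at 102%. Below 50% of ACT were 7 of the 12 restricted genes, 2 of the 15 muscle-enriched genes and 1 of the 25 broadly expressed genes.

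The difference of medians between restricted and broadly expressed genes in KO against ACT was -1.31, and it was -0.56 with the muscle-enriched genes counted as restricted. Other cells' markers moved in this comparison as well: 18 of 20 macrophage markers were lower in KO, all 20 endothelial markers were higher and 19 of 20 hepatocyte markers were higher. Of 3 measured portal fibroblast markers, all were lower, their sum going from 1021 to 1050 CPM in ACT to 347 to 359 in KO. Most of that sum was Fbln2, with means of 958 CPM in ACT and 340 in KO. The means of Thy1 were 64.1 and 3.41 CPM, and those of Cd34 15.0 and 10.5. Of 10 measured mesothelial and biliary markers, 4 were lower and 3 higher. The 4 lower ones were the mesothelial markers Wt1, Upk3b, Upk1b and Lrrn4, whose means went from 79.8, 58.4, 30.5 and 44.7 CPM in ACT to 0.90, 0.87, 1.01 and 0.78 in KO, and the 3 higher ones were the keratins Krt8, Krt18 and Krt19. Of the 15 stellate markers, 12 were higher in KO and 1 lower (median 1.92). The part of these cells in the member values was not tested.

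Several broadly expressed members were higher in KO than in ACT. Pdlim1, a LIM protein that binds alpha-actinin, read 107, 117 and 99.5 CPM in QS, 127, 143 and 127 in ACT, 320, 319 and 280 in KO, and 271, 262 and 262 in LAC. Pdlim1 rose by 1.20 ± 0.07 in KO against ACT (adjusted p = 1.3e-09), next to Ppp1r14a in size. Actn4, a non-muscle alpha-actinin that cross-links actin, read 559, 509 and 511 CPM in QS, 757, 750 and 745 in ACT, 1548, 1453 and 1353 in KO, and 1132, 1067 and 1073 in LAC. It rose by 0.95 ± 0.05 in KO against ACT (adjusted p = 5.1e-10) and fell by 0.41 ± 0.05 in LAC against KO (adjusted p = 1.2e-05). Cnn3, the acidic calponin of non-muscle cells, read 328, 318 and 327 CPM in QS, 343, 327 and 327 in ACT, 528, 521 and 525 in KO, and 469, 473 and 489 in LAC, and rose by 0.66 ± 0.03 in KO against ACT (adjusted p = 2.4e-10). Actn4 and Cnn3 in LAC lay between KO and ACT with no overlap. Csrp2, a LIM protein of muscle, rose by 0.81 ± 0.19 in KO against ACT (adjusted p = 0.0017), from 6.10, 5.11 and 6.48 CPM to 10.7, 13.5 and 9.43. It fell by 0.68 ± 0.19 in LAC against KO (adjusted p = 0.0094), to 8.51, 5.87 and 5.52 CPM.

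LAC was compared with KO to see what lactate added to Hk2-deleted cells did. Of the 52 members, 30 were higher in LAC and 14 lower, beside 20.0% of all genes higher and 21.0% lower; the member median was 0.21 and that of all genes -0.02. Among the restricted genes 10 of 12 were higher and 1 lower (median 0.73). Among the muscle-enriched genes 11 of 15 were higher and 2 lower (median 0.37), and among the broadly expressed genes 9 of 25 were higher and 11 lower (median -0.07). The 5 largest rises were those of Actg2, Cnn1, Lmod1, Myh11 and Tpm2. Tpm2, beta-tropomyosin, which lies along the actin filament, read 4.56, 3.75 and 4.43 CPM in QS, 357, 358 and 360 in ACT, 109, 113 and 109 in KO, and 258, 258 and 249 in LAC. Tpm2 rose by 1.20 ± 0.06 in LAC against KO (adjusted p = 7.6e-10), to 71.2% of the ACT mean.

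The falls in LAC against KO were smaller than the largest rises, that of Csrp2, by 0.68, being the largest. Tagln2, the widely expressed transgelin, read 256, 235 and 251 CPM in QS, 479, 507 and 506 in ACT, 702, 700 and 692 in KO, and 529, 523 and 506 in LAC. It fell by 0.43 ± 0.04 in LAC against KO (adjusted p = 6.6e-07), and did not pass the test in LAC against ACT (adjusted p = 0.18). Pxn, at 169, 141 and 144 CPM in KO and 114, 115 and 110 in LAC, fell by 0.41 ± 0.07 (adjusted p = 0.00023). Fhl3, a LIM protein of muscle, read 57.8, 45.9 and 57.4 CPM in KO and 43.8, 36.4 and 39.2 in LAC, and fell by 0.42 ± 0.10 (adjusted p = 0.0033). The difference of medians between restricted and broadly expressed genes was 0.80. Macrophage markers moved with this comparison (17 of 20 higher in LAC), endothelial markers were lower (19 of 20) and hepatocyte markers were lower (19 of 20). Of the 15 stellate markers, 6 were higher and 5 lower. Of 10 measured mesothelial and biliary markers, 6 were higher and 0 lower, the mean of Wt1 going from 0.90 CPM in KO to 5.89 in LAC. Of 3 measured portal fibroblast markers, 2 were higher and 0 lower, their sum going from 347 to 359 CPM in KO to 659 to 680 in LAC. Fbln2 made up most of that sum, with means of 340 CPM in KO and 642 in LAC. The part of other cells in the member values was not tested, and Hk2 itself differed between these groups.

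**Figure D3:**
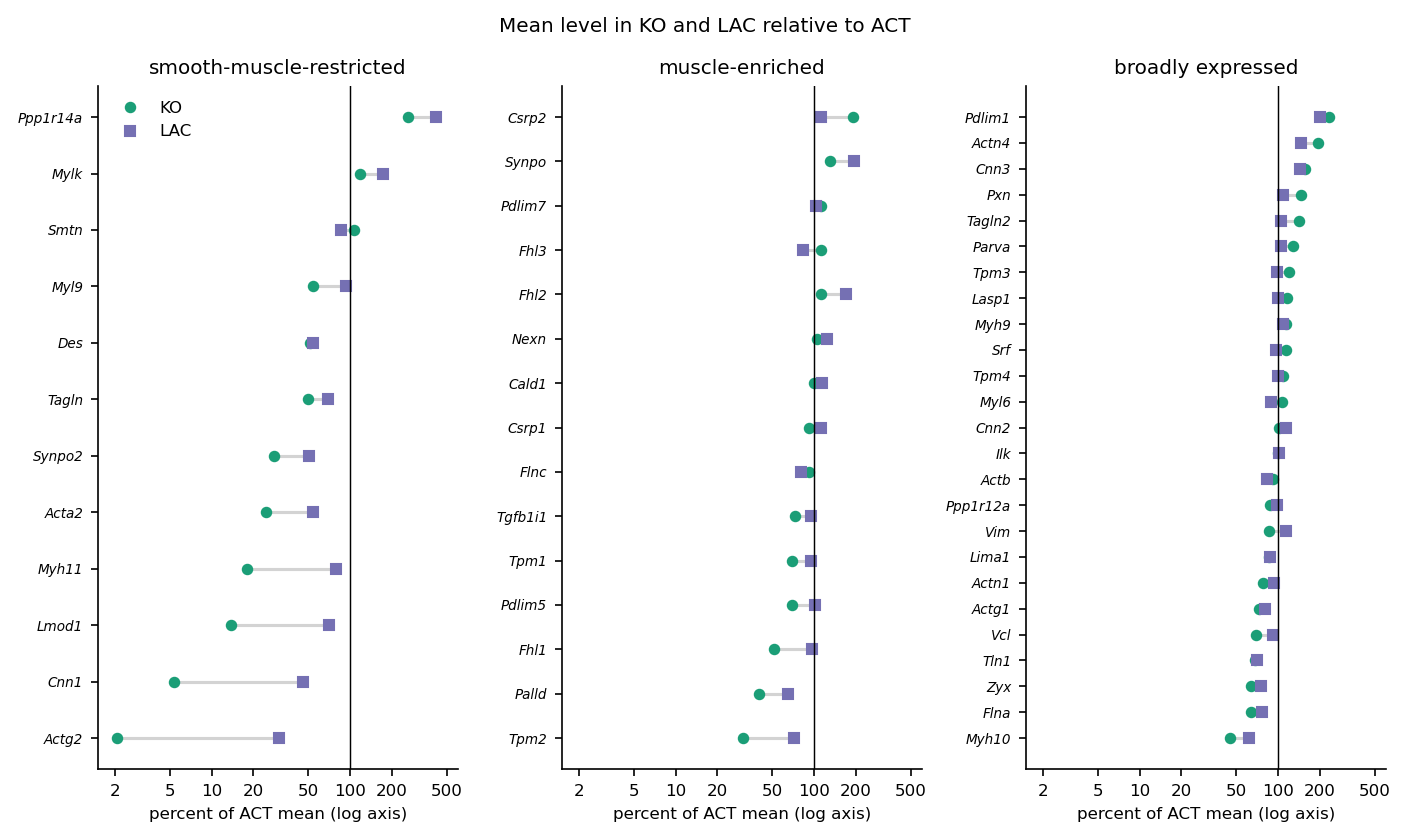
Mean level in KO (circles) and LAC (squares) as a percentage of the ACT mean (horizontal log axis) for the 52 measured members by class, each gene on its own line, ordered by the KO value; the vertical line marks 100%. In KO, 7 of 12 restricted genes lie below 50%, against 1 of 25 broadly expressed genes, and in LAC 2 restricted genes and no other member do.

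LAC was set against ACT to show how far the lactate-treated cells stood from activated controls. Of the 52 members, 21 were lower in LAC and 12 higher, beside 21.7% of all genes lower and 27.8% higher, and 19 did not pass the test. The restricted genes had 8 falls and 2 rises among 12 (median -0.52), the muscle-enriched genes 3 falls and 5 rises among 15 (median 0.03) and the broadly expressed genes 10 falls and 5 rises among 25 (median -0.03). The median level in LAC was 69.8% of ACT for restricted genes, 102% for muscle-enriched genes and 97.7% for broadly expressed genes. The largest falls were Actg2 (log2 fold change -1.70 ± 0.36), Cnn1 (-1.12 ± 0.14), Acta2 (-0.89 ± 0.16), Des (-0.89 ± 0.09) and Synpo2 (-0.87 ± 0.20). With a pseudocount of 0.1, Actg2 (adjusted p = 0.14) and Cnn1 (adjusted p = 0.056) were no longer called. Myh11 did not pass (-0.33 ± 0.65, adjusted p = 0.71) but did without QS replicate 2 (-0.33, adjusted p = 0.0012).

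The largest rises in LAC against ACT were Ppp1r14a (log2 fold change 1.90 ± 0.16), Pdlim1 (1.00 ± 0.07), Synpo (0.94 ± 0.09), Mylk (0.79 ± 0.03) and Fhl2 (0.76 ± 0.09). Synpo, synaptopodin, an actin-bundling partner of alpha-actinin, read 64.5, 56.9 and 51.7 CPM in QS, 110, 113 and 116 in ACT, 168, 140 and 133 in KO, and 234, 209 and 211 in LAC. Fhl2 read 43.7, 47.3 and 48.3 CPM in KO and 66.4, 72.7 and 74.5 in LAC. Both genes were highest in LAC with no overlap with another group. Among the markers of other cells, 19 of 20 macrophage markers were lower in LAC than in ACT and 20 of 20 endothelial markers higher, and 13 of 15 stellate markers were higher. Of 10 measured mesothelial and biliary markers, 3 were higher and 4 lower, and of 3 measured portal fibroblast markers 0 were higher and 2 lower. The difference of medians between restricted and broadly expressed genes was -0.48, and -0.06 with the muscle-enriched genes counted as restricted.

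KO was also set against QS, the cultured Hk2-deleted cells, which still held 10.7 to 13.7 CPM of Hk2, against fresh cells. Of the 52 members, 47 were higher in KO and 2 lower, beside 37.4% of all genes higher and 35.7% lower. Acta2 (log2 fold change 7.54 ± 0.16, adjusted p = 2.7e-14), Flnc (6.60 ± 0.17, adjusted p = 1.7e-13) and Tagln (5.63 ± 0.07, adjusted p = 1.9e-16) rose most among members with a level above 0 in QS. Tpm2 rose by 4.41 ± 0.06 (adjusted p = 2.0e-16). Fhl2, at 0 in QS, stood at 46.4 ± 2.44 CPM (SD, n = 3) in KO. Pxn fell by 0.39 ± 0.07 (adjusted p = 0.00012), and Ppp1r12a was at -0.10 ± 0.04 (adjusted p = 0.044), a sign that turned to 0.01 at equal totals and 0.00 under quantile normalization. Actg2 was called higher in KO (adjusted p = 0.013), but not without KO replicate 2 (adjusted p = 0.071). The difference of medians between restricted and broadly expressed genes was 1.48 here, 0.87 without QS replicate 2, 0.35 with the muscle-enriched genes as restricted, and 0.30 with a pseudocount of 5. In this comparison all 20 macrophage markers and 19 of 20 hepatocyte markers were lower in KO, 17 of 20 endothelial markers were lower and 2 higher, and 11 of 15 stellate markers were lower and 3 higher. Of 10 measured mesothelial and biliary markers, 4 were lower and 2 higher, and of 3 measured portal fibroblast markers 1 was lower and 1 higher.

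Within the muscle-enriched class, genes took different courses over the groups. Tpm1, alpha-tropomyosin, stood at 153 ± 11.8 CPM in QS and 1910 ± 25.1, 1324 ± 15.8 and 1820 ± 14.9 in ACT, KO and LAC (SD, n = 3). Palld, palladin, a scaffold of stress fibres, stood at 82.7 ± 1.55, 533 ± 12.3, 214 ± 12.8 and 345 ± 9.67 CPM, and Fhl1, a LIM protein of muscle, at 52.9 ± 2.76, 315 ± 11.0, 161 ± 9.20 and 305 ± 8.34 CPM. All 3 fell in KO against ACT (log2 fold change -0.53, -1.31 and -0.96) and rose in LAC against KO (0.46, 0.69 and 0.91). Cald1, caldesmon, an actin-binding inhibitor of the myosin ATPase, stood at 1866 ± 54.4 CPM in ACT and 1865 ± 79.9 in KO and did not pass the test there (adjusted p = 0.98), though it did under quantile normalization (0.20, adjusted p = 0.0026). Flnc stood at 341, 292 and 272 CPM in KO and 264, 273 and 262 in LAC, and passed neither in KO against ACT (adjusted p = 0.51) nor in LAC against KO (adjusted p = 0.44). Tgfb1i1, Hic-5, a relative of paxillin at focal adhesions, fell by 0.45 ± 0.07 in KO against ACT (adjusted p = 3.7e-05) and rose by 0.37 ± 0.07 in LAC against KO (adjusted p = 0.00044). Pdlim5, which binds alpha-actinin, fell by 0.53 ± 0.05 and rose by 0.56 ± 0.05 in the same comparisons (adjusted p = 7.7e-07 and 1.2e-06).

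Among the broadly expressed genes, the non-muscle myosin heavy chains parted. Myh10, non-muscle myosin IIB, read 25.2, 27.4 and 26.4 CPM in QS, 295, 303 and 287 in ACT, 133, 136 and 126 in KO, and 191, 178 and 173 in LAC. It had the largest fall of its class in KO against ACT (log2 fold change -1.16 ± 0.05, adjusted p = 8.1e-11) and rose by 0.45 ± 0.05 in LAC against KO (adjusted p = 6.5e-06). Myh9, non-muscle myosin IIA, stood at 1071 ± 90.7 CPM in QS and 2140 ± 36.8, 2439 ± 197 and 2315 ± 59.0 in ACT, KO and LAC (SD, n = 3). Its rise of 0.19 ± 0.06 in KO against ACT (adjusted p = 0.015) was lost without ACT replicate 1 (0.17, adjusted p = 0.050) or KO replicate 1 (0.12, adjusted p = 0.074). Flna, filamin A, which links actin into networks, fell by 0.67 ± 0.08 in KO against ACT (adjusted p = 3.5e-06). The linkers of adhesions to actin fell in part in that comparison: Vcl, vinculin, by 0.53 ± 0.03 (adjusted p = 1.3e-09), Tln1, talin, by 0.56 ± 0.07 (adjusted p = 7.6e-06) and Zyx, zyxin, by 0.65 ± 0.09 (adjusted p = 1.5e-05). Vcl rose by 0.42 ± 0.03 in LAC against KO (adjusted p = 6.8e-08), whereas Tln1 did not pass (0.05 ± 0.07, adjusted p = 0.60). Ilk, the pseudokinase that couples integrins to actin, stood at 258 ± 2.14 CPM in ACT, 257 ± 7.96 in KO and 261 ± 5.78 in LAC. Vim, vimentin, the intermediate filament protein of mesenchymal cells, was at -0.21 ± 0.04 in KO against ACT (adjusted p = 0.00012), which quantile normalization turned to 0.03, and rose by 0.40 ± 0.04 in LAC against KO (adjusted p = 6.5e-07).

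Because paralogs within a library share its scaling, the composition of each family was computed per length from the level divided by transcript length. Acta2 made up 0.05% ± 0.02 of the 4 member actins in QS and 20.3% ± 0.26, 6.98% ± 0.14 and 14.3% ± 0.21 in ACT, KO and LAC (SD, n = 3). The summed level of these actins per kilobase was 2455, 6434, 4599 and 4912 CPM in the same order. Tagln made up 4.55% ± 0.47, 72.0% ± 0.76, 47.5% ± 0.45 and 62.9% ± 0.73 of the transgelin pair. Cnn1 made up 0.06% ± 0.05, 19.1% ± 0.77, 0.95% ± 0.12 and 7.76% ± 1.02 of the 3 calponins, while the summed calponin level per kilobase was 391, 417 and 441 CPM in ACT, KO and LAC. Among myosin heavy chains, Myh11 made up 7.21% ± 0.25 in ACT, 1.30% ± 0.05 in KO and 5.67% ± 0.12 in LAC, while their sum per kilobase stayed at 350 to 355 CPM. In these families the muscle paralog took its lowest cultured share in KO in every library. A shared scaling does not remove differences in cell mix, since broadly expressed paralogs can also come from the other cells whose markers differed between groups. The part of these cells in the shares was not tested.

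The shares of tropomyosins, light chains, alpha-actinins and filamins were computed in the same way. Tpm2 and Tpm1 together with Tpm3 and Tpm4 form the tropomyosins, of which Tpm2 made up 0.27%, 10.4%, 3.76% and 7.86%, and Tpm1 7.21%, 41.9%, 33.9% and 42.2%, in QS, ACT, KO and LAC. Myl9 made up 5.65%, 45.9%, 30.3% and 47.3% of the pair with Myl6, the essential light chain. Since Myl9 is a regulatory light chain, this pair does not hold alternative forms of 1 protein, unlike the families above. Actn1 made up 24.1%, 60.3%, 37.9% and 49.2% of the pair with Actn4. The filamins went another way, Flnc making up 0.28%, 8.77%, 12.2% and 9.18% of the pair with Flna. These shares are descriptions of whole libraries, with no test, and the part of other cells in them was likewise not tested.

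**Figure D4:**
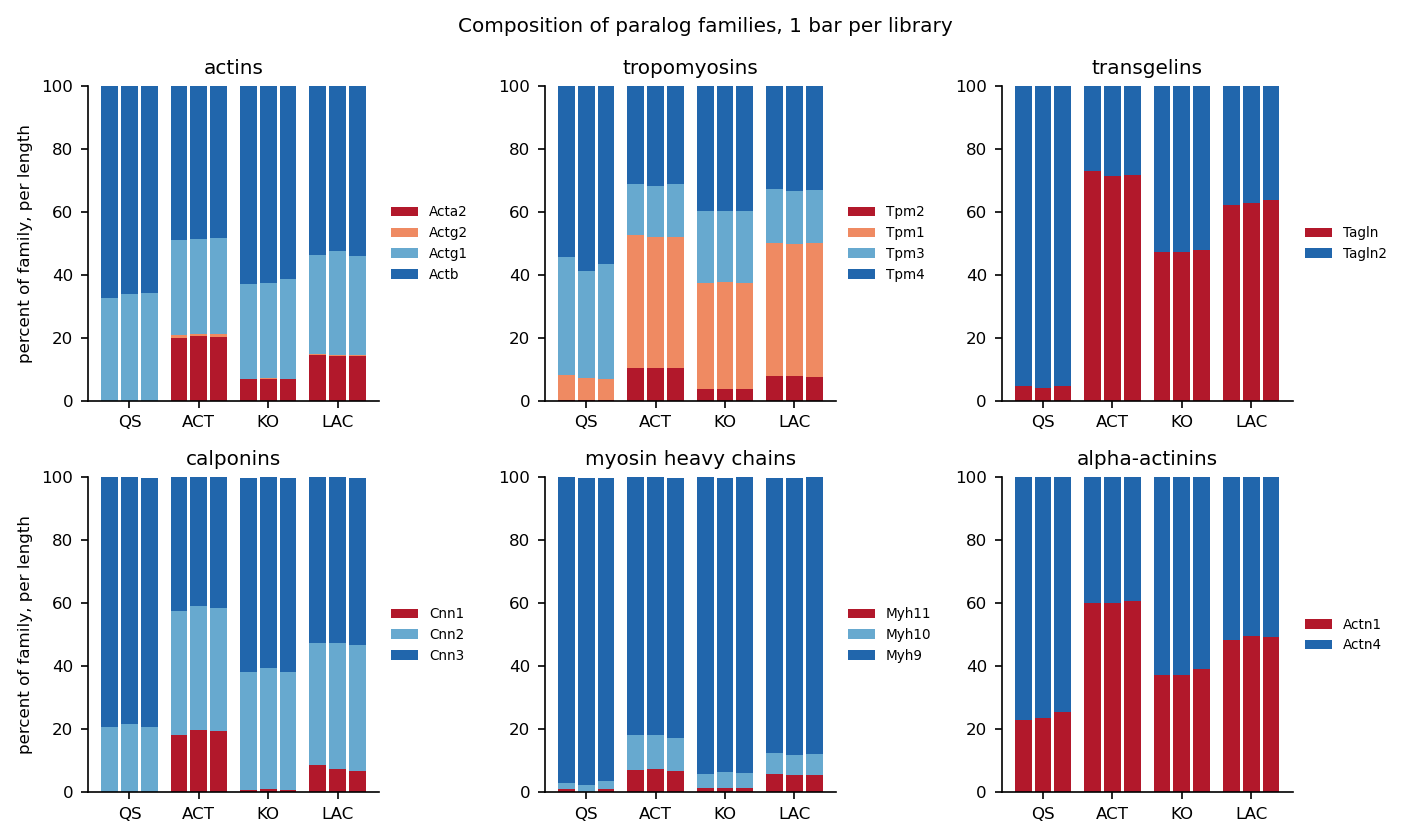
Composition of 6 paralog families per length (vertical axis, percent of the family), 1 stacked bar per library, 3 libraries each of QS, ACT, KO and LAC; reds and orange mark the muscle paralog or the paralog with the larger rise on activation. The share of Acta2 was 20.3% in ACT, 6.98% in KO and 14.3% in LAC, and that of Tagln 72.0%, 47.5% and 62.9%. Shares are of all cells in a library, and the part of other cells was not tested.

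Since SRF acts through CArG boxes, promoter windows from 250 bases before to 50 after each RefSeq start (GRCm38.p6) were searched on both strands for the CArG box and for its form with 1 G or C among the middle 6 bases. A window was present for 43 of the 53 listed genes, Pdlim3 included; Actg2, Tagln, Myh11, Actb, Pxn, Csrp2, Parva, Nexn, Synpo and Tgfb1i1 had none in the table. A full CArG box was found for 9 of the 43 genes (20.9%), and either form for 13 (30.2%). Of all 32851 windows 1.63% held a full box and 9.98% either form, and of all 27025 genes with a window 1.81% and 11.3%. By class, a full box was found for 1 of 9 restricted genes, 2 of 12 muscle-enriched genes and 6 of 22 broadly expressed genes. Boxes outside these windows were not searched, nor were any of Actg2, Tagln and Myh11 among the restricted genes. The counts therefore do not show which class holds more boxes. The following matches are shown for the 2 restricted genes that had one and for 4 members with different courses, each in 30 bases along the gene's strand with the box in capitals and its first base counted back from the start.
Acta2, 84 bases before, substituted form, chr19:34255438-34255467, minus strand: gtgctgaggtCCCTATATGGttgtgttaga
Acta2, 34 bases before, substituted form, chr19:34255388-34255417, minus strand: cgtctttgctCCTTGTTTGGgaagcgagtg
Myl9, 161 bases before, full, chr2:156775293-156775322, plus strand: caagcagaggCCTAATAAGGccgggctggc
Myl9, 99 bases before, substituted form, chr2:156775355-156775384, plus strand: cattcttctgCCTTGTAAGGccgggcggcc
Actg1, 90 bases before, full, chr11:120348566-120348595, minus strand: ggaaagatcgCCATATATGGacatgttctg
Vcl, 227 bases before, full, chr14:20929161-20929190, plus strand: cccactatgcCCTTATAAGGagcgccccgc
Fhl2, 31 bases before, full, chr1:43163973-43164002, minus strand: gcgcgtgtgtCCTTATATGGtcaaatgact
Srf, 82 bases before, full, chr17:46556225-46556254, minus strand: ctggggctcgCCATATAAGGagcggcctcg
Fhl2 and Srf each had 2 full boxes, of which 1 is shown. Of the genes shown, Acta2, Myl9, Actg1 and Vcl fell in KO against ACT, whereas Fhl2 (adjusted p = 0.14) and Srf (adjusted p = 0.22) did not pass. Of the genes with a full box that are not shown, Lima1 and Fhl1 fell in that comparison, whereas Cnn2 and Myl6 did not pass. A match of letters is a description and not a bound site.

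Srf itself varied little: it read 33.2, 24.5 and 29.5 CPM in QS, 40.3, 38.3 and 37.5 in ACT, 50.9, 43.3 and 37.6 in KO, and 40.2, 35.7 and 37.1 in LAC. It rose by 0.41 ± 0.11 in ACT against QS (adjusted p = 0.0053) and passed in neither KO against ACT nor LAC against KO (adjusted p = 0.17). Diaph3, a formin that elongates actin filaments, rose by 3.85 ± 0.24 in ACT against QS (adjusted p = 2.5e-09). Mrtfa, an actin-sensing partner of SRF, stood at 66.5 to 71.4 CPM in ACT, 47.0 to 57.3 in KO and 74.9 to 86.3 in LAC, and Mrtfb at 76.7 to 82.2, 55.7 to 68.6 and 85.3 to 96.0 CPM. Both rose in LAC against KO (log2 fold change 0.60 ± 0.11, adjusted p = 0.00063, and 0.54 ± 0.08, adjusted p = 7.2e-05). Elk3, a factor that competes with MRTFs for SRF, fell by 1.89 ± 0.04 in ACT against QS (adjusted p = 2.5e-14) and rose by 1.20 ± 0.04 in KO against ACT (adjusted p = 6.9e-12).

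Of 18 genes of actin assembly, 10 were lower and 3 higher in KO against ACT, beside 26.3% of all genes lower and 36.0% higher. In LAC against KO 9 were higher and 1 lower, beside 20.0% and 21.0% of all genes. Enah, a filament elongation factor, read 49.2, 45.7 and 48.1 CPM in ACT, 10.7, 8.13 and 11.7 in KO, and 23.3, 24.3 and 21.9 in LAC. It fell by 2.14 ± 0.16 in KO against ACT (adjusted p = 2.7e-08) and rose by 1.13 ± 0.16 in LAC against KO (adjusted p = 5.5e-05). Tmsb4x, thymosin beta 4, which sequesters actin monomers and is abundant in leukocytes, fell by 1.19 ± 0.06 in KO against ACT (adjusted p = 3.5e-10). Of 20 partners of adhesion complexes, 14 were higher and 4 lower in KO against ACT (median 0.59), and 5 were higher and 7 lower in LAC against KO (median 0.06). Tns2, tensin 2, rose by 1.78 ± 0.09 in KO against ACT (adjusted p = 5.7e-10), and Bcar1, the adaptor p130Cas, rose by 1.51 ± 0.05 (adjusted p = 6.9e-12), from 104 to 108 CPM in ACT to 290 to 330 in KO. A list of 15 actin regulators of leukocytes was lower in KO against ACT in all 15 (median -4.65) and higher in 12 in LAC against KO. Dock2, which activates Rac in leukocytes, fell by 6.32 ± 0.13 in KO against ACT (adjusted p = 2.5e-14).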

How the data were processed

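RNA from 12 libraries (QS, ACT, KO and LAC, 3 each) was prepared with a stranded mRNA kit, per the labels' protocols. The submitters' processing notes name FastQC 0.11.8, cutadapt 1.18, kallisto 0.44.0, edgeR 3.8 and the mm10 build; kallisto estimates abundances, so genes with near-identical copies can share reads. The authors deposited normalized CPM, handled here as signal values, since columns summed to 959233 to 1047040 rather than to a common total. All 12081 genes had at least 1 CPM in 3 libraries. Depth was estimated from the smallest repeated value of each column and covers counting error only.

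Values were tested as log2(CPM + 1) with limma 3.58.1 (R 4.3.3), 4 group means, an intensity trend and 8 residual degrees of freedom, with Benjamini-Hochberg adjustment over all genes and a threshold of 0.05; ± after a fold change is its SE. The procedure was tested on simulated data. A fold change on this scale understates the change of low genes. Class medians are descriptions with no test, and they rest on approximate classes. The restricted class holds Mylk and Smtn, whose means in QS were already 107 and 79.5 CPM. Levels between genes were compared only per length of the longest GENCODE M21 transcript. Sequences came from GENCODE M21 and RefSeq (GRCm38.p6).

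The members and lists were chosen with earlier results of these data known. By rule, values in every library were given for restricted members, actins and the 5 largest rises and falls of a comparison. From each other list up to 3 called genes were to be named per comparison. Markers of cell types were named outside this rule, and further members were named to describe their roles after their values were seen. Alternatives were pseudocounts of 0.1 and 5, a minimum of 5 CPM, equal totals, quantile normalization, removal of marker genes, a replicate block, fits of 2 groups, other class borders and leaving out each library. The counts of 1 pathway list are not reported here.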

Additional observations from a re-analysis of the deposited data

How the results depend on the processing

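Higher and lower member counts stayed within 1.5 times under every alternative, except the small lower counts: that of ACT against QS became 1 at equal totals and without marker genes, and that of KO against QS became 1 at equal totals, under quantile normalization, without marker genes, with the replicate block and with 2 groups in the fit. Leaving out 1 library gave 1 to 2 lower members in both. The difference of class medians became 4.58 in ACT against QS, -1.44 in KO against ACT, 0.88 in LAC against KO and 2.12 in KO against QS with a pseudocount of 0.1, and 2.97, -1.01, 0.73 and 0.30 with one of 5. Quantile normalization gave 0.73 in LAC against KO and -0.44 in LAC against ACT. Counting muscle-enriched genes as restricted gave 1.62, -0.56, 0.63, -0.058 (LAC against ACT) and 0.35 (KO against QS), and counting them as broadly expressed gave 0.63 in LAC against KO. Without 1 library the difference ranged over 3.39 to 4.23 in ACT against QS and 0.87 to 1.77 in KO against QS, lowest without QS replicate 2 in both, and over -0.50 to -0.47 in LAC against ACT. Without length correction Acta2 made up 21.2% of actins in ACT, 7.33% in KO and 15.0% in LAC. Signs turned for Ppp1r12a in KO against QS (0.013 at equal totals, 0.0021 under quantile normalization), and under quantile normalization for Actb (0.14 in KO against ACT, 0.17 in LAC against KO, 0.30 in LAC against ACT), Vim (0.028 in KO against ACT) and Actg1 (-0.035 in LAC against KO). Equal totals moved the median of all genes in KO against QS by 0.10. The cause of these changes was not tested.

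No strong pairing of libraries by replicate number was seen: 18 correlations of same-numbered libraries ran from -0.04 to 0.09, and 6 were the best of their library. Whether same-numbered libraries shared an origin is not labelled, and these correlations cannot decide it. With the replicate block 45 members were higher and 2 lower in ACT against QS, and 258 of 260 member values stayed on their side of the threshold; Ppp1r12a lost its calls in ACT against QS and KO against QS. Of 3120 member values with 1 library left out, 65 lost and 9 gained a call. Depth limits Actg2, Cnn1 and Lmod1 in QS, which lay near or below 3 reads, and Actg2 in KO replicate 3, at 0.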

Other observations

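Of 9 measured smooth muscle genes outside the contractile list, 4 were higher and 3 lower in KO against ACT, beside 36.0% of all genes higher and 26.3% lower. In LAC against KO 4 were higher and 2 lower, beside 20.0% and 21.0% of all genes. Itga8, the integrin alpha 8 chain of stellate and mural cells, read 127, 139 and 124 CPM in QS, 5.45, 4.49 and 5.79 in ACT, 61.3, 54.0 and 57.7 in KO, and 24.6, 20.9 and 23.9 in LAC. It fell by 4.39 ± 0.10 in ACT against QS (adjusted p = 2.2e-14) and rose by 3.24 ± 0.10 in KO against ACT (adjusted p = 1.2e-12), the reverse of Acta2 in both. Ldb3, a PDZ and LIM protein of muscle, was listed at 0 in QS and in KO, at 7.30 to 8.12 CPM in ACT, and at 3.25, 6.52 and 0.00473 in LAC.

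Of 12 genes of striated muscle, Acta1 and Tnnt2 had rows. Acta1, skeletal alpha-actin, stood at 0.16 to 1.04 CPM in QS, 38.3 to 42.3 in ACT, 6.03 to 9.15 in KO and 14.8 to 15.5 in LAC. It fell by 2.35 ± 0.20 in KO against ACT (adjusted p = 1.2e-07) and rose by 0.99 ± 0.20 in LAC against KO (adjusted p = 0.0011). Tnnt2, cardiac troponin T, stood at 3.65 to 5.16 CPM in ACT and 13.3 to 15.8 in KO and rose by 1.45 ± 0.22 (adjusted p = 6.6e-05).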
